A study of Mus musculus with 2 samples.

Results

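The genes described here are Mir219a-1, Mir219a-2 and Mir338, the precursor genes of miR-219a and miR-338, the microRNAs most closely tied to oligodendrocytes. They were chosen by name, are 3 of the 2202 microRNA genes in the tables, and all 3 had at least 10 sense-strand reads in each library, as had 417 genes in all, which are called detected. MicroRNA-seq of RNA shorter than 30 bases was made from total RNA of left cerebral cortex tissue, taken from male adult 5xFAD/CAST mice at 8 to 10 months of age. 5xFAD is a transgenic model of amyloid deposition, whose transgenes are driven by a neuronal promoter, and CAST commonly stands for a wild-derived inbred line; the labels leave unsaid whether the sampled animals carried the transgenes. The 2 libraries form 1 group, are numbered in the labels as biological replicates 1 and 2, and come from separate tissue samples with 1 donor identifier, so that the spread between them may be technical. No control mice were analysed, and the results are levels and their difference between libraries.

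Oligodendrocytes make the myelin sheath of axons in the central nervous system, and they arise from dividing progenitors. MicroRNAs are cut from hairpin precursors as short RNAs, often from both arms of the hairpin (5p and 3p), and repress messenger RNAs that pair with the seed near their 5′ end. As background, miR-219 and miR-338 rise as progenitors mature and repress factors that keep progenitors dividing, such as Pdgfra, Sox6 and Hes5, and loss of miR-219 delays myelination.

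The sequences show which reads can be told apart between these genes. Below are the mature arms listed by RefSeq (GRCm38.p6, the mm10 assembly) for the 3 genes, 5′ to 3′, with the seed (bases 2 to 8) in capitals. The first is made from both Mir219a-1 and Mir219a-2, the second from Mir219a-1 and the last pair from Mir338. RefSeq lists no 3p arm for Mir219a-2, which does not show that none is made.
mmu-miR-219a-5p: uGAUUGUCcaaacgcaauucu
mmu-miR-219a-1-3p: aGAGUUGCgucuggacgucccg
mmu-miR-338-3p: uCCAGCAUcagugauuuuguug
mmu-miR-338-5p: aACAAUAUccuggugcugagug
The 4 arms have 4 different seeds. None of these seeds recurs under another name among the 1679 mature microRNA names of the RefSeq table.

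The hairpins, with the listed mature arms in capitals, show how far Mir219a-1 and Mir219a-2 differ around the arm that they share.
Mir219a-1 hairpin: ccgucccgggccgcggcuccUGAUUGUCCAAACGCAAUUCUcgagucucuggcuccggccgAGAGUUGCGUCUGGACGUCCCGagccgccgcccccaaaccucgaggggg
Mir219a-2 hairpin: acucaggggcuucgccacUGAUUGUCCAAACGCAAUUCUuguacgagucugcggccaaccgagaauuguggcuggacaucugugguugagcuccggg
Mir338 hairpin: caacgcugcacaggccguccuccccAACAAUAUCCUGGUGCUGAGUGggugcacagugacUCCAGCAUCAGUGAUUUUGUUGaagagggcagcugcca
The longest run common to both miR-219a hairpins was 22 bases, the 21 bases of miR-219a-5p with the base before it, and the next longest was 7 bases. Of the windows of 20 bases in each hairpin, 3 of 91 in Mir219a-1 and 3 of 78 in Mir219a-2 recurred in another of the 1005 RefSeq hairpins, each time in the other miR-219a gene. None of the 79 windows of Mir338 recurred. In the 141767 GENCODE M21 transcripts, miR-219a-5p was found in the sense direction in Mir219a-1 and Mir219a-2, and both arms of miR-338 in Mir338 alone. The 3p arm of Mir219a-1 was found in Mir219a-1 and in the lincRNA Gm26940, which covers 88 of its 110 bases on the same strand.

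A read equal to miR-219a-5p therefore has at least 2 exact places. Reads that mapped to several places are kept in a total of their own, 38.5% of all reads in replicate 1 and 33.0% in replicate 2, so no gene count includes them. The counts of both miR-219a genes may thus lack reads equal to miR-219a-5p, which lies wholly inside the run of bases that both hairpins share. Reads counted for either gene would then hold bases outside that run. Whether they were longer forms of this arm or came from elsewhere in the hairpin cannot be told. The counts of each precursor do not say which arm was read. The genome sequence itself was not searched.

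The 3 genes lie on the minus strand (mm10, GENCODE M21). Mir338 (ENSMUSG00000065600.1) is at chr11:120014765-120014862, inside Aatk, which encodes a kinase abundant in the nervous system, and overlaps none of the exons of the 9 annotated Aatk transcripts. Mir219a-2 (ENSMUSG00000065485.1) is at chr2:29845631-29845727, outside any other gene on its strand, and 629 bases from the end of Urm1 on the other strand. Mir219a-1 (ENSMUSG00000065555.1) is at chr17:34024983-34025092, 303 bases from Ring1, a Polycomb gene, and 941 bases from H2-Ke6.

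Each of the 3 hairpins has a second annotated microRNA gene on the opposite strand. Mir3065 covers 87 bases of Mir338, Mir219b covers 65 bases of Mir219a-2 and Mir219c covers 60 bases of Mir219a-1. All listed partner arms except miR-219b-5p lie across a listed arm of a member, and none lies across miR-338-5p. Among them, miR-3065-5p overlaps 21 of the 22 bases of miR-338-3p, and miR-219b-3p covers all 21 bases of miR-219a-5p. The partner arms are printed here, with the seed in capitals, because reads of 1 strand could be taken for the other where strand is not used.
mmu-miR-3065-5p: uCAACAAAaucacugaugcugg
mmu-miR-219b-3p: aGAAUUGCguuuggacaaucagu
mmu-miR-219b-5p: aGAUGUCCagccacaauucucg
mmu-miR-219c-3p: cGAGAAUUgcguuuggacaauc
mmu-miR-219c-5p: gGACGUCCagacgcaacucucg

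**Figure D1:**
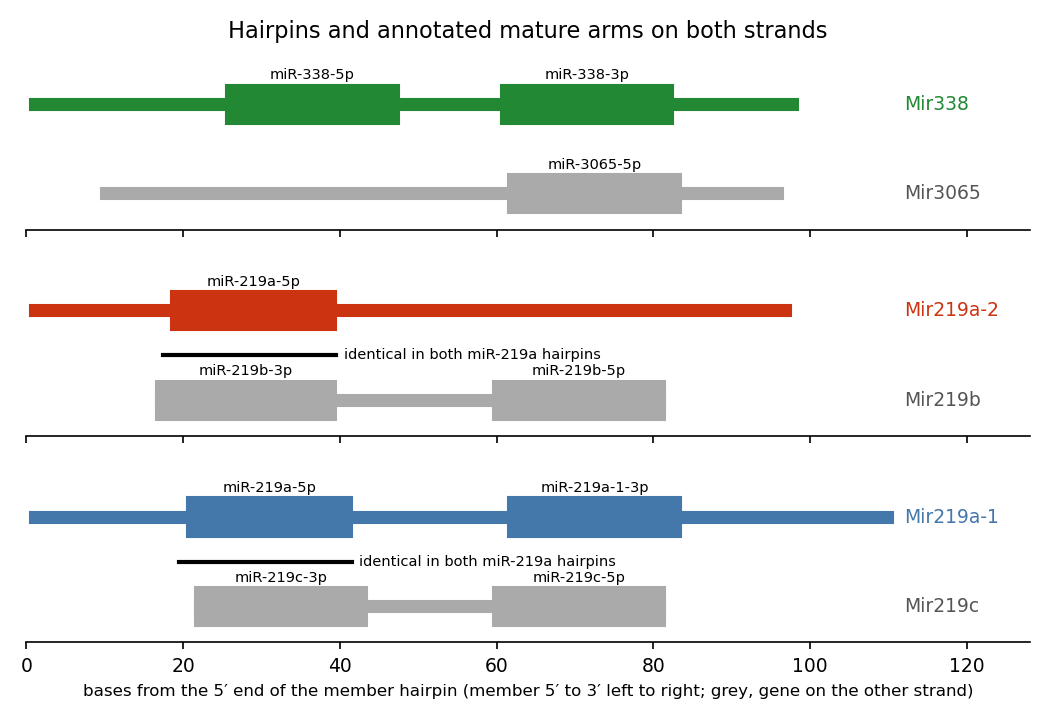
The 3 hairpins (coloured) and the microRNA gene on the opposite strand of each (grey), drawn to scale from the 5′ end of the member. Thick boxes are the mature arms listed by RefSeq, which lists no 3p arm for Mir219a-2. The black line marks the 22 bases that Mir219a-1 and Mir219a-2 share, and each grey gene lies inside the span of the coloured one.

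By counted reads, Mir338 and Mir219a-2 both stood at a middle to high level, and Mir219a-1 was close to the limit of detection. Mir338 had 11450 sense reads in replicate 1 and 13843 in replicate 2. Scaled to 1000000 assigned reads (CPM), this was 2323 CPM (exact 95% binomial interval 2280.5 to 2366) and 3117 CPM (3065 to 3169), a mean of 2719.8 ± 561 CPM (SD, n = 2). It ranked 59th and 51st of the 2202 genes. The level was higher in replicate 2, and the intervals of the 2 libraries did not overlap.

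Mir219a-2 had 5247 reads in replicate 1 and 11108 in replicate 2. These gave 1064 CPM (1036 to 1094) and 2501 CPM (2455 to 2548), a mean of 1783 ± 1016 CPM (SD, n = 2) and ranks of 92 and 59. Replicate 2 was again the higher library, by a wider margin than for Mir338.

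Mir219a-1, the other source of miR-219a-5p, had 27 and 20 reads. Its level was 5.48 CPM (3.61 to 7.97) in replicate 1 and 4.50 CPM (2.75 to 6.95) in replicate 2, a mean of 4.99 ± 0.689 CPM (SD, n = 2), with ranks of 357 and 378. The intervals of the 2 libraries overlapped. Intervals cover counting error only. Each read is a whole small RNA, so levels were not divided by gene length.

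By counted reads, the order was Mir338 above Mir219a-2 above Mir219a-1 in both libraries. Within a library the ratio of Mir338 to Mir219a-2 was 2.18 (exact 95% interval 2.11 to 2.26) in replicate 1 and 1.25 (1.22 to 1.28) in replicate 2. These ratios do not depend on the library total, and on the log2 scale they differed by -0.81 (replicate 2 minus replicate 1). Mir219a-2 may lack reads equal to miR-219a-5p, whereas both arms of miR-338 were found in Mir338 alone among the transcripts. The ratios are thus of counted reads and may overstate Mir338 relative to Mir219a-2. Across libraries the 2 genes were not separated by the replicate spread, since Mir219a-2 in replicate 2 stood above Mir338 in replicate 1. The gap to Mir219a-1 was far wider: Mir219a-2 had 194 times the reads of Mir219a-1 (133 to 295) in replicate 1 and 555 times (359 to 909.6) in replicate 2. Both counts exclude reads placed at both genes, so this is a ratio of reads that could be given to 1 gene.

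Together the 3 genes took 0.339% of the assigned reads in replicate 1 (16724 reads, interval 0.334 to 0.344%) and 0.562% in replicate 2 (24971 reads, 0.555 to 0.569%). Mir338 supplied 68.5% and 55.4% of these reads, Mir219a-2 31.4% and 44.5%, and Mir219a-1 0.161% and 0.0801%. Any reads equal to miR-219a-5p that mapped to several places are missing from these shares.

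The counts of all 3 genes vanished when strand was ignored. In the column of counts without regard to strand, Mir338, Mir219a-2 and Mir219a-1 each had 0 reads in both libraries. Reads over 2 overlapping genes fall there into a total of ambiguous reads, 349505 in replicate 1 and 318888 in replicate 2, against 0 in the sense column. The 0 of this column is therefore no measure of the level. Of the 27 detected genes with such an opposite-strand partner, 24 had 0 in this column in both libraries, while 367 of the 390 detected genes without such an overlap had the same value in both columns.

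The third column, counts on the opposite strand, gives the partners. Mir3065 had 1 read in replicate 1 and 4 in replicate 2, so that the partner strand held 0.00873% (exact 95% interval 0.000221 to 0.0486%) and 0.0289% (0.00787 to 0.0739%) of the reads of the Mir338 locus. Mir219b had 0 reads in both libraries, which allows a share of up to 0.0572% and 0.0270% of the reads of the Mir219a-2 locus, or 0.609 and 0.675 CPM. Mir219c had 5 reads beside the 27 of Mir219a-1 in replicate 1, a share of 15.6% (5.28 to 32.8%). It had 0 beside the 20 in replicate 2, with an exact upper limit of 16.8% and a floor of 15%. At Mir338 and Mir219a-2 nearly all reads thus came from 1 strand, and at Mir219a-1 the counts were too low to say. Over the 24 opposite-strand pairs of the series whose stronger gene had at least 100 reads in each library, 17 had no read from the weaker gene in either library and 1 had more than 1% from it as the mean of both libraries, and the Mir338 and Mir219a-2 loci both lie within that range.

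**Figure D2:**
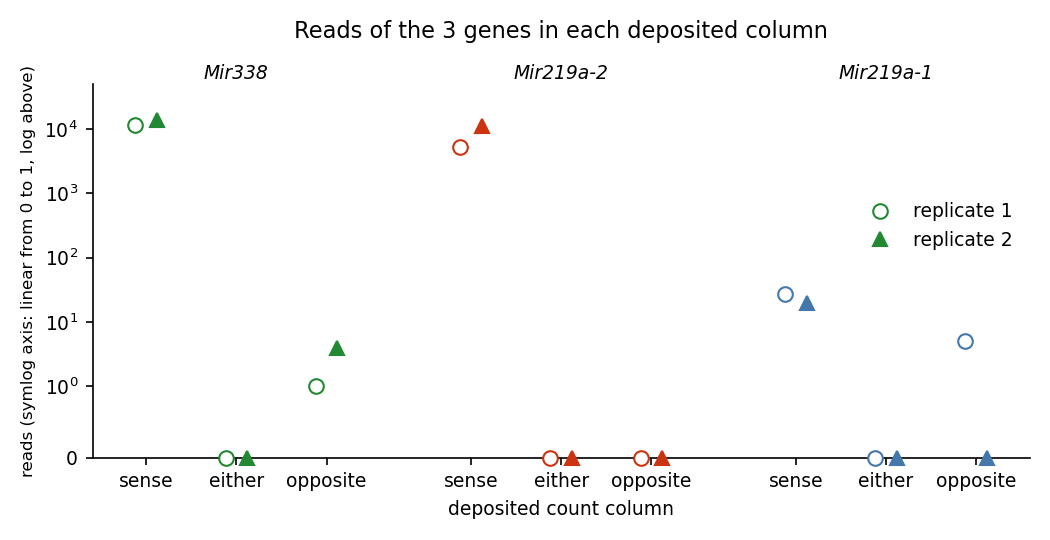
Reads of each gene in the sense column, the column without regard to strand (either) and the opposite-strand column, in replicate 1 (open circles) and replicate 2 (filled triangles); the axis is linear from 0 to 1 and logarithmic above. All 3 genes are at 0 in the column without strand, and Mir338 has 11450 and 13843 reads in the sense column against 1 and 4 on the opposite strand.

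Between the 2 libraries, Mir219a-2 and Mir338 were higher in replicate 2 and Mir219a-1 was not distinguishable. Mir219a-2 was 2.35-fold higher in replicate 2 (exact 95% interval 2.27 to 2.43), a log2 ratio of 1.23, and its adjusted p was 0 at the precision of the program (exact two-sided binomial test with Benjamini-Hochberg adjustment over 417 genes). Mir338 was 1.34-fold higher (1.31 to 1.38), a log2 ratio of 0.42 (adjusted p = 1.26e-119, same exact test). Mir219a-1 had a log2 ratio of -0.28 (-1.19 to 0.61; adjusted p = 0.666, exact test), so its interval includes a level more than 2-fold lower as well as the log2 ratio of Mir338, but not that of Mir219a-2. This test compares these 2 libraries, not conditions, and counts only sampling error.

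Such calls were common. By the same test 59.2% of the 417 detected genes differed between the libraries, 24.7% being higher and 34.5% lower in replicate 2. The 2 of 3 called members are thus near the share over all genes. Calls were more common at greater depth: of the 270 genes with at least 100 counts in each library, as Mir219a-2 and Mir338 had, 218 were called. Genes at least 2-fold higher in replicate 2 were less common, at 6.47% of the 417, and Mir219a-2 was among these. By the size of its log2 ratio in either direction Mir219a-2 was 31st of the 417 genes, Mir338 was 186th and Mir219a-1 249th. The coefficient of variation over the 2 libraries was 57.0% for Mir219a-2, 20.6% for Mir338 and 13.8% for Mir219a-1, beside a median of 18.2% over the detected genes. Mir338 thus varied about as much as the median gene, and Mir219a-2 varied more. Mir219a-1 had 27 and 20 reads and a log2 ratio interval of -1.19 to 0.61, too wide to place it beside the median.

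The scale changed the size of these differences and not their direction. Per 1000000 reads of the whole library, assigned or not, Mir219a-2 stood at 319.9 in replicate 1 and 654 in replicate 2, and Mir338 at 698 and 815. On this scale the log2 ratios were 1.03 for Mir219a-2 and 0.22 for Mir338. Replicate 2 had the smaller share of reads assigned to microRNA genes, 26.1% of 16991914 reads against 30.1% of 16403925.

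**Figure D3:**
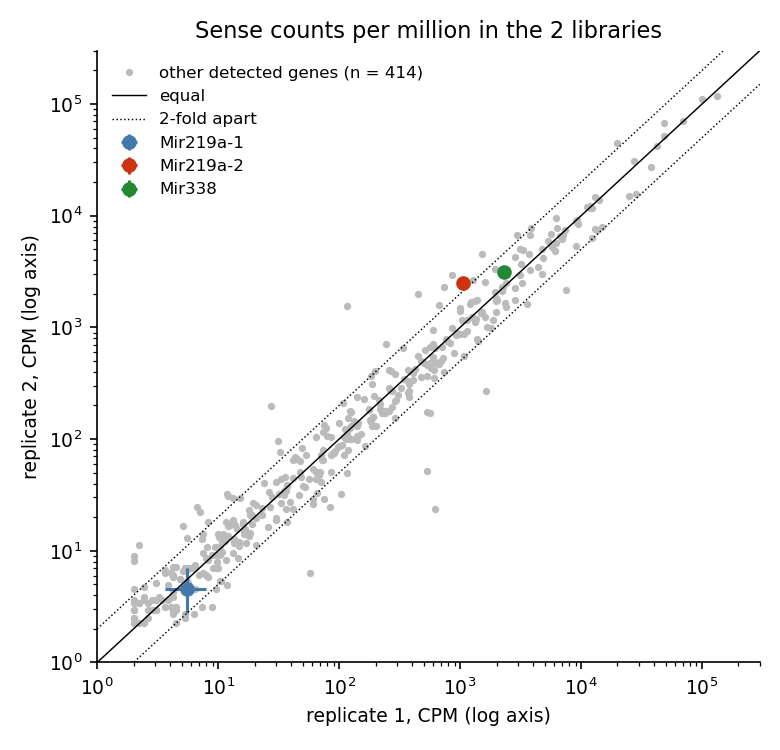
CPM of the 417 detected genes in replicate 1 (x axis) and replicate 2 (y axis), both logarithmic, with the 3 genes coloured and their exact 95% binomial intervals as bars. Mir219a-2 lies above the upper dotted line of a 2-fold difference, Mir338 lies between it and the line of equality, and Mir219a-1 lies at the low end near equality.

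Other microRNAs named in work on oligodendrocyte progenitors, differentiation and myelin moved in both directions between the libraries. Of the 18 listed beside the 3 members, 16 were annotated under those names (Mir7a-1 and Mir7a-2 were not) and 14 were detected. Genes annotated as Mir7-1 (438 and 331 reads) and Mir7-2 (586 and 354 reads) were both called lower in replicate 2. They are left out of the list counts and median below. By the exact binomial test 2 of the 14 were higher in replicate 2, 8 were lower and 4 did not pass, beside 24.7% higher and 34.5% lower over all 417 detected genes; whether the list differs from the other genes was not tested. It had a median log2 ratio of -0.26 beside -0.05 over all detected genes. The most abundant was Mir23a, which is known to enhance oligodendrocyte differentiation and is also made in other cells, at 14768 CPM in replicate 1 and 7993 CPM in replicate 2. Mir125a stood at 9224 and 9161 CPM, and Mir138-1, named in early differentiation, at 3112 and 2954 CPM. Mir212 (509 and 630.2 CPM) and Mir145a (259 and 288 CPM) were the 2 higher ones, and were named after their values were seen. The 6 listed genes of the miR-17~92 cluster, which promotes growth of the lineage, were uneven: Mir17 had 2087 and 1888 reads, Mir92-1 1847 and 1192, Mir20a 1180 and 794 and Mir18 114 and 92, while Mir19a had 1 and 0 and Mir19b-1 none. These, too, were named after their values were seen. Most of the listed microRNAs are made in many cells, so the list is no measure of oligodendrocytes.

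Levels of markers of other cells are given beside these values; their counts of called genes are to be read against the 59.2% called over all detected genes. The summed level of the 12 neuronal genes was 52166 CPM in replicate 1 and 61935 CPM in replicate 2, of which Mir132 alone held 19682 and 44698 CPM. Of the 10 detected, 7 were lower in replicate 2 and 2 higher. Reads that mapped to several places are missing from this and the other sums, so sums of different cell types are not comparable levels. Mir124a-1 (21 and 12 reads), Mir124a-2 (9 and 7) and Mir124a-3 (3 and 0) may be undercounted in this way. The 8 astroglial genes summed to 41970.2 and 33982 CPM, with 4 higher and 2 lower of 8 detected and a median log2 ratio of 0.25; Mir23b alone stood at 25038 and 14908 CPM, a wider gap than that of the sum. Microglial and leukocyte genes summed to 1934 and 2081 CPM (1 higher and 2 lower of 5 detected, Mir142b at 0 in both). Vascular genes summed to 20418 and 21812 CPM (2 higher and 1 lower of 3, with Mir126b and Mir145b at 0). Mir142b and Mir126b are the opposite-strand partners of Mir142 and Mir126a. Mir145a, a higher vascular gene, is also in the oligodendrocyte lineage list. Those of red blood cells summed to 602 and 88.5 CPM (1 higher and 2 lower of 3), and those of the choroid plexus to 1753 and 803 CPM (0 higher and 3 lower of 4). Mir204, a lower choroid plexus gene at 1084 and 553 CPM, is also in the oligodendrocyte lineage list. The 3 oligodendrocyte genes summed to 3393 and 5622 CPM. The part of these shifts in the difference of Mir219a-2 and Mir338 was not tested. In bulk tissue, fewer cells of a type and less RNA per cell cannot be told apart.

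**Figure D4:**
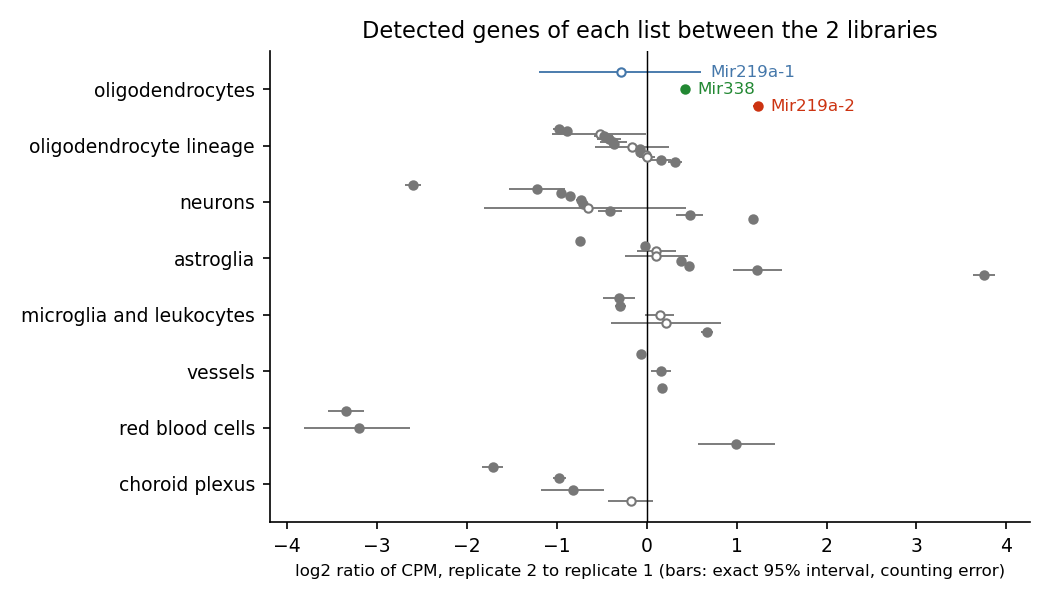
Log2 ratio of CPM in replicate 2 to replicate 1 for every detected gene of each list, with exact 95% intervals for counting error; filled points passed the adjusted threshold. Mir219a-2 (1.23) and Mir338 (0.42) lie to the right of 0, while 8 of the 14 oligodendrocyte lineage genes lie to the left as called genes.

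The genes nearest to each member were found by distance over log2(CPM + 1) in the 2 libraries, where both libraries held 100 or more reads of the neighbour; with 2 points per gene this describes level and ratio only. Nearest to Mir219a-2 were Mir34a (1281 and 2663 CPM, distance 0.28), Mir107 (850.2 and 2971 CPM, 0.41) and Mir222 (737 and 2309.7 CPM, 0.54), all of them higher in replicate 2. Nearest to Mir338 were Mir187 (1925 and 3318 CPM, 0.29), Mir342 (2384 and 2514 CPM, 0.31) and Mir138-1 (0.43). For Mir219a-1 no close gene could be found in this way, because it lies below the minimum of 100 reads; the nearest, Mir10b, Mir3057 and Mir679, were at distances of 2.85 to 3.07 and at 20.5 to 27.0 CPM. Mir219a-2 and Mir338 were not among each other's 3 nearest genes.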

How the data were processed

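Each library has a table of raw counts per microRNA gene, deposited by the authors and made against mm10 with GENCODE M21, per the notes deposited with the files; which programs aligned and counted the reads is not given in the sources used here. That the 3 count columns are without regard to strand, sense and opposite strand is an inference from the layout. All 2202 gene identifiers matched GENCODE M21. CPM was computed from sense counts over the reads assigned to microRNA genes, 4929428 in replicate 1 and 4441328 in replicate 2; unassigned totals (unmapped reads, 25.6% and 34.3%; several places, 38.5% and 33.0%; no gene, 5.82% and 6.54%) stayed out. A read is worth 0.203 and 0.225 CPM, and the floor for 0 reads is 3 counts. Binomial tests, Clopper-Pearson intervals and Benjamini-Hochberg adjustment (threshold 0.05) used SciPy 1.17.1, with alternative scaling by edgeR 4.0.16 and DESeq2 1.42.0. In simulated data with counting error alone, the binomial test of the libraries, over 431 genes, called 73.4% of 64 genes changed 1.5-fold, 87.5% of 64 changed 2-fold and 2.09% of 239 unchanged genes. RefSeq hairpins were found for all 3 genes and their 3 partners at the GENCODE coordinates. Named genes are the members, opposite-strand partners, genes sharing a seed, the 3 nearest genes by level, and up to 3 of each list. Further genes were named after their values were seen. These are list genes higher in replicate 2, those at 0, the miR-17~92 members, Mir132, Mir23b and the Mir124a genes, with Mir7-1 and Mir7-2. The members and lists were chosen with earlier results of these data known.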

Additional observations from a re-analysis of the deposited data

How the results depend on the processing

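No paired analysis was possible because there is only 1 group. In counts without regard to strand the levels of Mir338, Mir219a-2 and Mir219a-1, and their joint share of the reads, became 0, so no ratio between libraries or between Mir338 and Mir219a-2 could be formed. Within the opposite-strand column the levels were 7.70 CPM for Mir338, 0 CPM for Mir219a-2 and 7.15 CPM for Mir219a-1, and the joint share 0.00148%; this column has a total of its own. Per 1000000 reads of the whole library the mean levels were 756, 487 and 1.41, by construction of the larger total. Leaving out each replicate gave the value of the other, 2323 to 3117 CPM for Mir338, 1064 to 2501 CPM for Mir219a-2, 4.50 to 5.48 CPM for Mir219a-1, 0.339 to 0.562% for the share and 0.32 to 1.13 for the log2 ratio of Mir338 to Mir219a-2. With TMM factors, DESeq2 size factors or all reads as the total, the log2 ratio between libraries stayed at 1.03 to 1.28 for Mir219a-2 and 0.22 to 0.47 for Mir338, both past the threshold in the exact binomial test, and at -0.48 to -0.23 for Mir219a-1, not past it. The number of genes that differed was 218 to 275 over the alternatives, beside 247 of 417 in the main test. The number of genes tested was not the same throughout. With at least 100 counts in each library 218 of 270 differed, a higher share, and without regard to strand 226 of 392 did. The 3 nearest genes of each member stayed the same with a pseudocount of 10 CPM. Depth limits Mir219a-1, with 27 and 20 reads, and the 3 opposite-strand partners, each with at most 5 reads in a library.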
